A study of Homo sapiens with 6 samples.

Results

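The genes described here are the zinc transporters of the SLC30 and SLC39 families, the metallothioneins and the zinc-sensing transcription factor MTF1, chosen by symbol from a table of 20345 protein-coding genes. They number 36: 10 SLC30 genes, 14 SLC39 genes, 11 metallothionein genes and MTF1. Expression was measured by RNA sequencing in HEK 293FT, a transformed line from human embryonic kidney that expresses SV40 large T antigen. There were 3 libraries titled HEK 293FTGFP cells and marked Vec, called GFP cells here, and 3 titled HEK 293FTGFP-CTRB1 cells, called CTRB1 cells. Both groups carry green fluorescent protein by their titles, and the second also carries CTRB1, the gene of chymotrypsinogen B1, a pancreatic digestive protease precursor. The labels do not say how CTRB1 was introduced, whether either line is 1 clone, or whether libraries came from separate cultures, so p-values measure the spread between these libraries, which may be technical. The question put to these genes is whether the RNAs of zinc handling differ between cells with and without CTRB1.

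Zinc enters the cytosol through SLC39 (ZIP) proteins, from outside the cell or out of organelles, and leaves it through SLC30 (ZnT) proteins, which pump it across the plasma membrane or into organelles. Metallothioneins are small cysteine-rich proteins that bind zinc, copper and cadmium in the cytosol. When free zinc rises, MTF1 binds metal response elements and activates the metallothionein genes and SLC30A1, and in mouse it is also known to repress Slc39a10. For this reason metallothionein RNA is widely used as a readout of the cell's available zinc.

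The 3 metallothionein genes that these cells express encode proteins of the same length, and their coding sequences are shown because they set how well reads can be assigned to each gene. The sequences are from GENCODE v29 (GRCh38, chromosome 16, plus strand), written 5′ to 3′, with cysteine codons in capitals. The coding parts, introns included, span chr16:56608656-56609354 for MT2A, chr16:56682541-56684049 for MT1X and chr16:56658059-56659164 for MT1F.
MT2A: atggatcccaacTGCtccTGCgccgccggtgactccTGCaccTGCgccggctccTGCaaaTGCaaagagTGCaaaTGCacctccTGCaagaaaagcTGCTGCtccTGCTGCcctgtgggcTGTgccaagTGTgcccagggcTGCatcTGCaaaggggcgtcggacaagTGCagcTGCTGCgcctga
MT1X: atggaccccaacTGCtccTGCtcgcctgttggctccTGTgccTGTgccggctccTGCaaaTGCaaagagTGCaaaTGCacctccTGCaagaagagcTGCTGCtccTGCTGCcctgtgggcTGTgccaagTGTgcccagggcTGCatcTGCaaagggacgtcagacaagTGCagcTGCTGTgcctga
MT1F: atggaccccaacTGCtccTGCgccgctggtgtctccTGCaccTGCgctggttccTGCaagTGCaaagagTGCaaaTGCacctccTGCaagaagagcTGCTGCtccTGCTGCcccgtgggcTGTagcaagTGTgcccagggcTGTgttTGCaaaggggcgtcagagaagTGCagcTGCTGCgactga
Each has 186 bases, and 20 of its 61 codons before the stop encode cysteine. MT1X and MT2A differ at 14 bases (92.5% identical), MT1F and MT2A at 16 (91.4%) and MT1F and MT1X at 21 (88.7%). Of all 50-base windows of the reference transcript, 4.88% for MT2A and 3.59% for MT1F occur unchanged in a transcript of another gene, and for MT1X 45.1% do, part of them in AC026461.1, a transcript that overlaps it on the same strand. No 100-base window of MT2A or MT1F is shared, against 19.1% of those of MT1X, all of them with AC026461.1 only. No source used here gives the read length, so the division of reads among these genes is reported as uncertain.

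Promoters of the metallothioneins and of SLC30A1 are shown for the metal response elements that MTF1 binds. The 7-base core was searched as TGCACNC and TGCGCNC on both strands of the RefSeq promoter windows (GRCh38.p14, 250 bases before to 50 after the start), which were found for 27 of the 36 genes. Matches are in capitals, and none overlapped another. The windows are chr16:56608334-56608633 (plus strand) for MT2A, chr16:56682220-56682519 (plus strand) for MT1X and chr1:211579112-211579411 (minus strand) for SLC30A1.
MT2A: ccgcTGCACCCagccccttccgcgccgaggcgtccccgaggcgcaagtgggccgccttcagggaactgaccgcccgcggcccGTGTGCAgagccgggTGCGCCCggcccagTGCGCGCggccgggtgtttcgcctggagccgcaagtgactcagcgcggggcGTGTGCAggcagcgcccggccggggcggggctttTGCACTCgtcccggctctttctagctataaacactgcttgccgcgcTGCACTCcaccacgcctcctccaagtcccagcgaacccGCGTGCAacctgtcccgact
MT1X: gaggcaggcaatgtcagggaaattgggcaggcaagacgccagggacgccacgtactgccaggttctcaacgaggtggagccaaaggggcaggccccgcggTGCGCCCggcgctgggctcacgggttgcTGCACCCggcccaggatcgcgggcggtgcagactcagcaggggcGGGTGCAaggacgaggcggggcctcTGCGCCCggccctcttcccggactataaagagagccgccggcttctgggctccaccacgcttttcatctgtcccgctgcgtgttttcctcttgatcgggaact
SLC30A1: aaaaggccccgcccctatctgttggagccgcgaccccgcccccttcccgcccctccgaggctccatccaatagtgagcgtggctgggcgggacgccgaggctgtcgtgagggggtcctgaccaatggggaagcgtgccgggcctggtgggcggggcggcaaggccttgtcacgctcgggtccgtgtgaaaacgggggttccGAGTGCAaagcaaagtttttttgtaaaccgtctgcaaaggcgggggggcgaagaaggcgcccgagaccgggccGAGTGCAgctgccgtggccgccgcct
MT2A held 8 matches, MT1X 4 and SLC30A1 2. At least 1 match was found in 29.6% of all 35116 promoter windows of this length, and 3 or more in 2.3%. All 5 metallothionein promoters in the table held at least 3 matches (MT1B, MT1H, MT1X, MT2A and MT4). Of these, MT1H held 8, as many as MT2A, but MT1H and MT4 had no count in any library, and MT1B had at most 2. MT1F, which these cells express, had no entry. Of the 22 other promoters, 7 held a match, and among the called transporters described below only SLC30A1 and SLC39A6 (1 match) did. SLC39A1, SLC39A10, SLC30A5 and SLC30A7 had none in this window, and SLC39A4 had no entry. A match is a description of letters and not a site shown to be bound.

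Total counts were 52571457 to 159616285 in the GFP libraries and 27514767 to 32522018 in the CTRB1 libraries, so every GFP library was deeper, and a floor of 3 counts stood at 0.0188 to 0.109 CPM (counts scaled to library size). Intervals and floors from counts cover counting error only. Genes known to be expressed in HEK 293 lines were present in both groups, with a summed level of 406 to 444 FPKM (fragments scaled to gene length and library size) in GFP and 390 to 409 FPKM in CTRB1 libraries, 7 of 8 measured genes passing the expression filter and 2 of these called higher and 2 lower. Pancreatic acinar markers other than the chymotrypsinogen B genes summed to 1.08 to 1.18 and 1.13 to 1.4 FPKM, none of 12 passed the filter, and 7 were at 0 in every library. Fibroblast markers summed to 7.01 to 7.55 and 7.25 to 8.51 FPKM with 1 of 7 passing, namely COL1A1. COL1A1 rose by 0.23 and HBA1, a haemoglobin gene used as a blood cell marker, fell by 0.54 in log2 units (adjusted p = 0.0331 and 0.0288 in edgeR). The call of COL1A1 was lost without any 1 library except CTRB1 replicate 1 (adjusted p 0.0623 to 0.12) and in limma (0.335). That of HBA1 was lost without CTRB1 replicate 3 (log2 change -0.35), GFP replicate 1 (-0.54) or GFP replicate 3 (-0.47), with adjusted p of 0.0594 to 0.107. The blood cell markers CD3E and HBB were at 0, and the part of these markers in the results below was not tested. In bulk RNA, fewer cells that express a gene and less of its RNA per cell cannot be told apart.

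Of the 36 genes, 22 were expressed, with an FPKM of at least 1 in all 6 libraries, and these were tested. The other 14 had low or no counts in both groups. In edgeR's quasi-likelihood test, with Benjamini-Hochberg adjustment over all 11961 genes tested and a threshold of 0.05, 2 of the 22 were higher in CTRB1 cells and 5 were lower. That is 31.8% of the genes tested here, beside 37.4% of all genes tested (18.6% higher and 18.9% lower), a share near the background. No called change exceeded 0.5 log2 units. The median log2 change of the 22 genes was -0.05 and the median size of a change 0.10, beside 0.00 and 0.11 for all genes tested. The CPM values of the groups did not overlap for 8 of the 22 genes, or 36.4%, beside 50% of all genes tested.

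**Figure D1:**
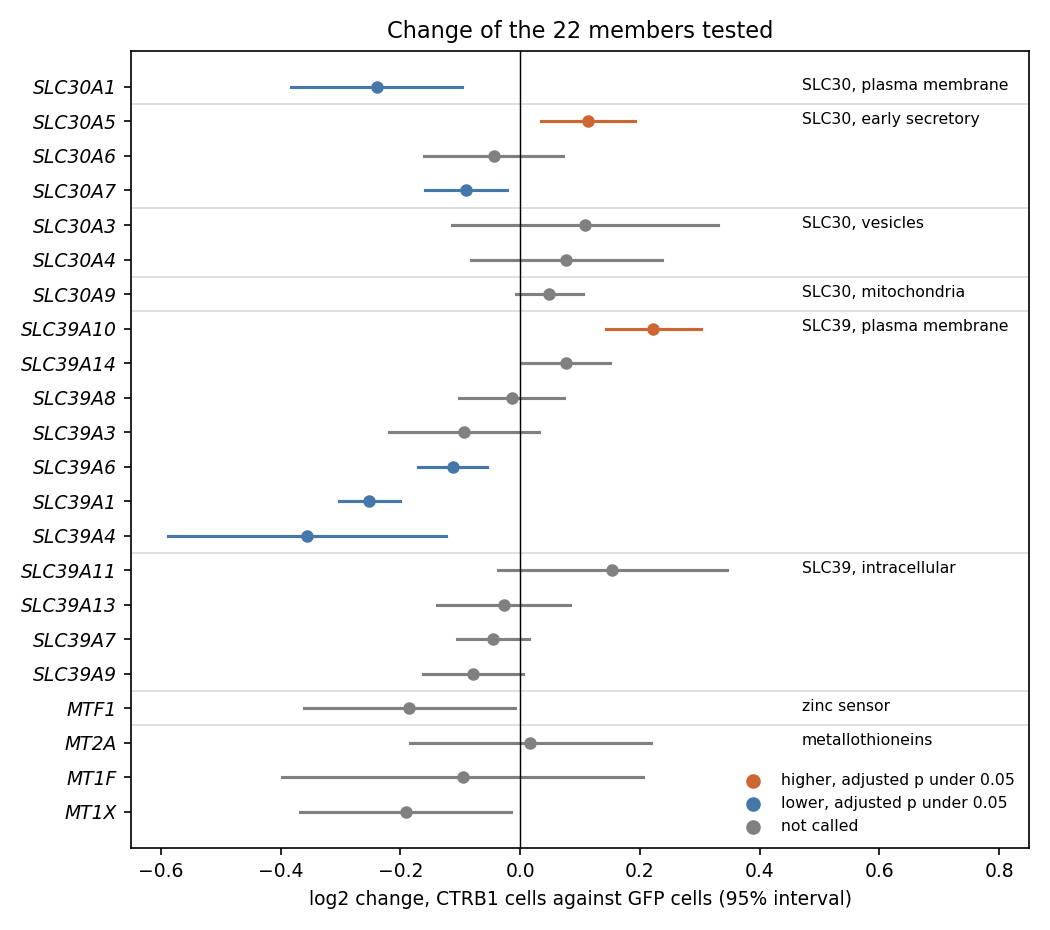
Log2 change of the 22 expressed genes between CTRB1 and GFP cells (points) with 95% intervals from the edgeR fit (lines), grouped by family and site. Positive values are higher in CTRB1 cells, and the called changes lie between -0.36 (SLC39A4) and 0.22 (SLC39A10).

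The importers at the plasma membrane were the class with the most genes tested, 7 of 10. Of the 7, 3 were lower (SLC39A1, SLC39A4 and SLC39A6), 1 was higher (SLC39A10) and 3 were not called. These 4 calls stand beside a share of 37.4% over all genes tested, and the class was not tested against other genes. SLC39A1 (ZIP1; ENSG00000143570; chromosome 1, positions 153931575 to 153940188 in the table, of unnamed build) is a widely expressed zinc importer and had the highest level per length of all 36 genes. Its level was 194, 190 and 191 CPM in the GFP libraries and 163, 159 and 161 CPM in the CTRB1 libraries. All 3 CTRB1 libraries lay below all 3 GFP libraries, with a gap wider than the spread within either group. SLC39A1 fell from 192 ± 1.88 to 161 ± 2.34 CPM (SD, n = 3 each), which is -0.25 ± 0.0232 on a log2 scale (SE; adjusted p = 2.01e-05 in edgeR), and the call was kept under all 15 alternative settings. CREB3L4, a transcription factor gene that overlaps SLC39A1 on the opposite strand, rose from 7.79 ± 0.259 to 12.1 ± 1.23 CPM (SD, n = 3 each; log2 change 0.64; edgeR adjusted p = 0.000434). Whether counting used strand is not stated, so reads of the overlap may not be fully separated. The same limit holds for SLC39A4 and SLC30A5, which antisense genes overlap in GENCODE v29. It also holds for SLC39A10 and SLC30A7, which pseudogenes on the opposite strand overlap. In GENCODE v29 a protein-coding gene, AL358472.7, also overlaps SLC39A1 on its own strand, which counting by strand would not separate. AC006538.2, also protein-coding, overlaps SLC39A3 in the same way.

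SLC39A10 and SLC39A6, a pair of related ZIP proteins known to form a heteromer at the plasma membrane, changed in opposite directions. SLC39A10 (ZIP10; ENSG00000196950; chromosome 2, positions 196440701 to 196602426) stood at 65.6, 69.2 and 67.4 CPM in the GFP libraries and at 78.2, 75.7 and 82.2 CPM in the CTRB1 libraries. Every CTRB1 library was above every GFP library. It rose 1.17-fold (log2 change 0.22 ± 0.0359, SE; edgeR adjusted p = 0.000799). SLC39A6 (ZIP6, also called LIV-1; ENSG00000141424; chromosome 18, positions 33688495 to 33709348) stood at 108, 104 and 104 CPM in the GFP libraries and at 96.6, 98.0 and 96.6 CPM in the CTRB1 libraries. The groups did not overlap here either, with all CTRB1 libraries lower. It fell by 0.11 ± 0.0264 in log2 units (SE; adjusted p = 0.00664 in edgeR). Both calls held under all 15 alternatives. The ratio of SLC39A10 to SLC39A6 in FPKM, computed after these values were seen and not tested, was 0.428, 0.464 and 0.446 in GFP cells, against 0.561, 0.547 and 0.578 in CTRB1 cells.

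SLC39A4 (ZIP4; ENSG00000147804), the intestinal zinc importer that is mutated in acrodermatitis enteropathica, had the widest fall of the tested genes and also a wide spread. It stood at 18.7, 18.7 and 17.1 CPM in the GFP libraries and at 12.5, 13.2 and 16.9 CPM in the CTRB1 libraries. CTRB1 replicate 3 came close to the lowest GFP library, while the other two CTRB1 libraries were well below it. The log2 change was -0.36 ± 0.106 (SE; edgeR adjusted p = 0.0217). The call was lost without CTRB1 replicate 1 (adjusted p = 0.0705), CTRB1 replicate 2 (0.0634), GFP replicate 1 (0.0505) or GFP replicate 2 (0.0696), with log2 changes of -0.27 to -0.34 in these fits.

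The remaining expressed importers of the plasma membrane were not called. SLC39A14 (ZIP14), which also carries manganese and iron, had 131 ± 3.9 and 138 ± 5.63 CPM (SD, n = 3 each) and a log2 change of 0.08, with a 95% interval of 0.00 to 0.15 (edgeR adjusted p = 0.0919). It passed with the replicate number as a block (adjusted p = 0.0293), without CTRB1 replicate 2 (0.0307) and among genes with a mean FPKM of at least 5 (0.0445). SLC39A8 (ZIP8), an importer of manganese and zinc, had a log2 change of -0.01 (95% interval -0.10 to 0.07), and SLC39A3 (ZIP3) one of -0.09 (-0.22 to 0.03). SLC39A2, SLC39A5 and SLC39A12 stayed below 0.55 CPM in every library and were not tested.

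None of the 4 importers of internal membranes was called. SLC39A7 (ZIP7), which releases zinc from the endoplasmic reticulum, was the second most abundant of the 36 genes per length, at 57.5 ± 0.956 FPKM in GFP cells and 55.4 ± 1.94 FPKM in CTRB1 cells (SD, n = 3 each). Its log2 change in the counts was -0.05, with a 95% interval of -0.11 to 0.01 (edgeR adjusted p = 0.216). RXRB, a nuclear receptor gene on the opposite strand that overlaps it, rose by 0.28 on the log2 scale (edgeR adjusted p = 0.000338). SLC39A9 (ZIP9), of the Golgi, had a log2 change of -0.08 (edgeR adjusted p = 0.122), and without CTRB1 replicate 1 it was called lower (-0.13; adjusted p = 0.0139). ERH, a gene on the opposite strand that overlaps SLC39A9, had 244 ± 2.95 CPM in GFP and 235 ± 3.1 CPM in CTRB1 cells (SD, n = 3 each). Its log2 change was -0.05 (edgeR adjusted p = 0.117). SLC39A13 (ZIP13), mutated in a form of Ehlers-Danlos syndrome, and SLC39A11 (ZIP11) had log2 changes of -0.03 and 0.15, with 95% intervals of -0.14 to 0.08 and -0.04 to 0.35.

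**Figure D2:**
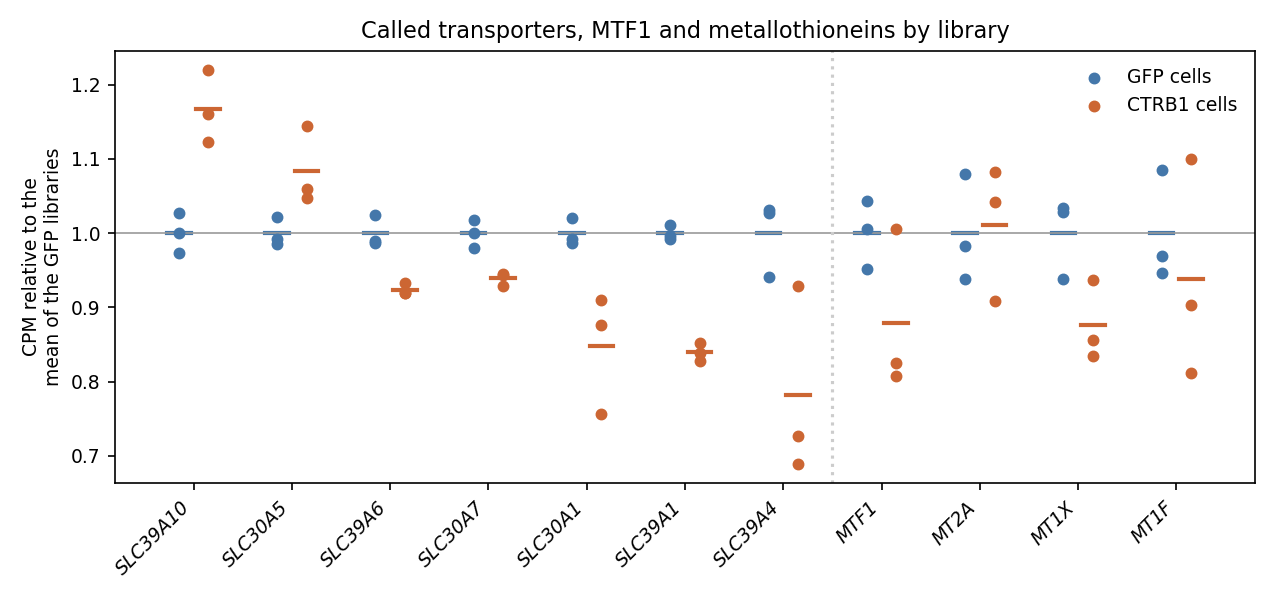
CPM of each library divided by the mean of the 3 GFP libraries, for the 7 called transporters (left of the dotted line) and for MTF1 and the expressed metallothioneins (right). Points are libraries and bars are group means; the groups of each called transporter are separate, while those of MTF1, MT2A and MT1F overlap.

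Among the exporters, SLC30A1 fell. SLC30A1 (ZnT1; ENSG00000170385; chromosome 1, positions 211744910 to 211752084), the main zinc exporter of the plasma membrane and a textbook MTF1 target, stood at 31.7, 32.8 and 31.8 CPM in the GFP libraries and at 24.3, 28.1 and 29.2 CPM in the CTRB1 libraries. All CTRB1 libraries were below all GFP libraries, and CTRB1 replicate 1 was the lowest. The log2 change was -0.24 ± 0.0646 (SE; edgeR adjusted p = 0.0137), or 1.18-fold lower. Without GFP replicate 2 the adjusted p was 0.0531, and without CTRB1 replicate 1 the log2 change was -0.16 with the call kept (adjusted p = 0.024). The other plasma membrane exporter, the manganese exporter SLC30A10, had 0.692 to 1.54 CPM over the 6 libraries and was not tested.

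The exporters of the early secretory pathway, which load zinc into enzymes such as alkaline phosphatase, had log2 changes of -0.09 to 0.11. SLC30A5 (ZnT5; chromosome 5, positions 68389473 to 68426896) stood at 81.9, 81.2 and 84.3 CPM in the GFP libraries and at 87.4, 86.4 and 94.3 CPM in the CTRB1 libraries, and it rose by 0.11 ± 0.0357 (SE; edgeR adjusted p = 0.0283). In FPKM the groups overlapped, at 21.5 ± 0.221 and 22 ± 1.31 (SD, n = 3 each), and limma on log2(FPKM + 1) gave an adjusted p of 0.686. The call of SLC30A5 was also lost without CTRB1 replicate 3 (log2 change 0.07; adjusted p = 0.0963), GFP replicate 1 (0.0787) or GFP replicate 2 (0.0991), and after thinning to equal depth (0.0586). SLC30A7 (ZnT7; chromosome 1, positions 101361632 to 101447309) stood at 65, 62.6 and 63.9 CPM in the GFP libraries and at 59.3, 60.3 and 60.3 CPM in the CTRB1 libraries, and it fell by 0.09 ± 0.0313 (SE; edgeR adjusted p = 0.0416). That call was kept in 4 of 15 alternatives only, and was lost with DESeq2 (adjusted p = 0.0819) and without any 1 of the 6 libraries (0.0531 to 0.135). SLC30A6 (ZnT6), the partner of SLC30A5 in a heterodimer, had a log2 change of -0.04 (95% interval -0.16 to 0.07).

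No exporter of vesicles or mitochondria was called. SLC30A9, a mitochondrial zinc exporter, had 121 ± 0.959 and 125 ± 2.93 CPM (SD, n = 3 each; log2 change 0.05, 95% interval -0.01 to 0.10; edgeR adjusted p = 0.155, and 0.0462 without CTRB1 replicate 2). SLC30A3 (ZnT3), which fills synaptic vesicles with zinc in neurons, was expressed at 14 ± 0.682 and 15 ± 2.2 CPM (SD, n = 3 each; log2 change 0.11, 95% interval -0.11 to 0.33), and SLC30A4 (ZnT4) had a log2 change of 0.08 (-0.08 to 0.24). SLC30A2, a vesicle transporter known from pancreatic acinar and mammary cells, had no count in any library, and SLC30A8, which supplies the insulin granules of beta cells, had at most 3 counts in a library.

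**Figure D3:**
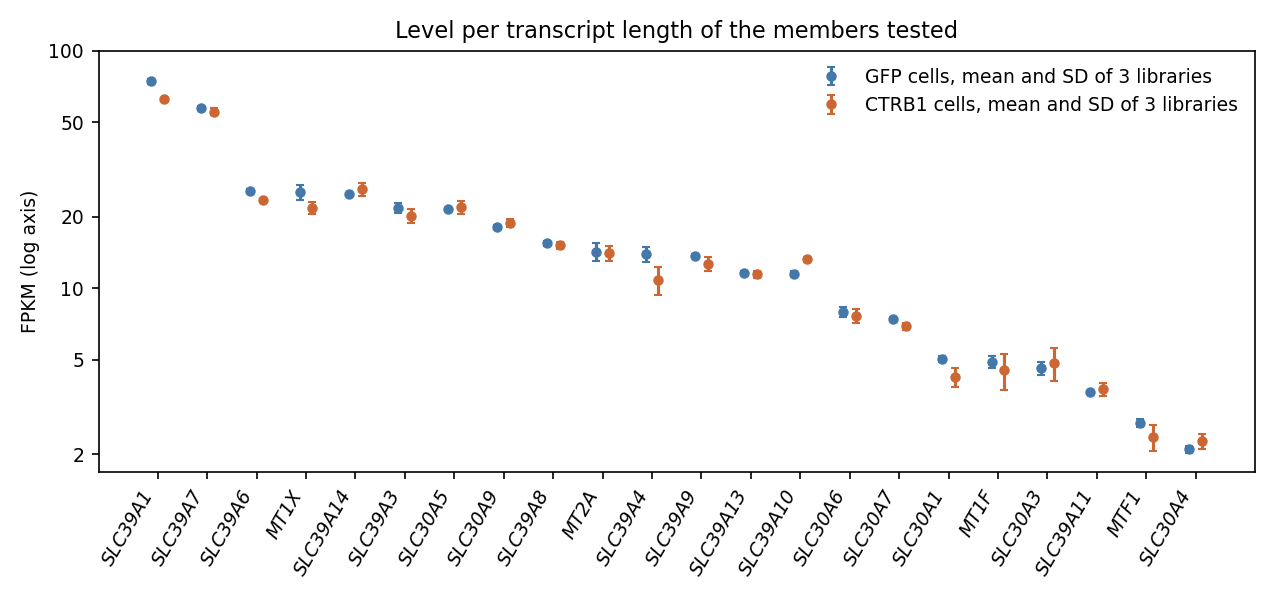
Mean FPKM and SD of 3 libraries per group for the 22 expressed genes, in order of their level in GFP cells, on a log axis. SLC39A1 and SLC39A7 stand at the top and MTF1 and SLC30A4 at the bottom in both groups.

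The metallothioneins, the most direct readout of MTF1 in this set, were not called. MTF1 itself (ENSG00000188786; chromosome 1, positions 38275239 to 38325292) stood at 25.2, 23.9 and 26.2 CPM in the GFP libraries and at 25.3, 20.7 and 20.3 CPM in the CTRB1 libraries. CTRB1 replicate 1 lay within the GFP range and the other two below it. The log2 change was -0.19 ± 0.0799 (SE; 95% interval -0.36 to -0.01 before adjustment; edgeR adjusted p = 0.0915), and without CTRB1 replicate 1 it was called lower (-0.29; adjusted p = 0.00712).

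MT2A (ENSG00000125148; chromosome 16, positions 56642111 to 56643409), usually the most abundant metallothionein of human cells, stood at 12.6, 13.8 and 12 CPM in the GFP libraries and at 11.6, 13.3 and 13.8 CPM in the CTRB1 libraries. The groups overlapped fully, and the log2 change was 0.02 with a 95% interval of -0.18 to 0.22 (edgeR adjusted p = 0.9). MT1X (ENSG00000187193; positions 56716336 to 56718108) stood at 14.8, 13.4 and 14.7 CPM in the GFP libraries and at 11.9, 13.4 and 12.2 CPM in the CTRB1 libraries. GFP replicate 2 and CTRB1 replicate 2 nearly met, at 13.39 and 13.37 CPM, with the other libraries apart. The log2 change of MT1X was -0.19 ± 0.0801 (SE; edgeR adjusted p = 0.0832), and limma on log2(FPKM + 1) called it lower (-0.21; adjusted p = 0.0342), as did edgeR without CTRB1 replicate 2 (-0.24; adjusted p = 0.0413). MT1F (ENSG00000198417; positions 56691606 to 56694610) stood at 3.79, 3.71 and 4.25 CPM in the GFP libraries and at 4.31, 3.18 and 3.53 CPM in the CTRB1 libraries, with overlapping groups and a log2 change of -0.10 (95% interval -0.40 to 0.20; edgeR adjusted p = 0.608).

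Because reads may be divided among genes of similar sequence, the counts of all 11 metallothionein genes were also summed. The sum was 1626, 2003 and 4914 counts in the GFP libraries and 883, 968 and 813 counts in the CTRB1 libraries, or 31.1, 30.9 and 31.0 CPM against 28.0, 29.9 and 29.6 CPM. All CTRB1 libraries lay just below all GFP libraries. The log2 change of the sum was -0.09 ± 0.0463 (SE; 95% interval -0.19 to 0.01; edgeR adjusted p = 0.155), and permuting the libraries exactly (a two-sided permutation test) gave p = 0.1, the lowest that 3 against 3 can reach. The interval corresponds to 0.876 to 1.01 times the level of GFP cells. In FPKM the sum passed in limma on log2(FPKM + 1), at -0.14 (adjusted p = 0.0218). That fit differs from the main one in both unit and test, and which of them matters was not tested.

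**Figure D4:**
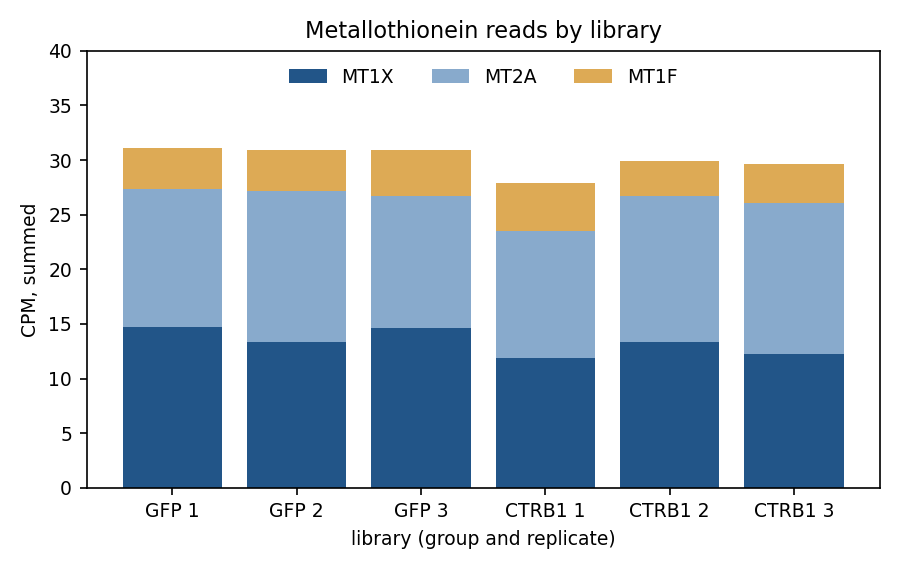
CPM of MT1X, MT2A and MT1F stacked for each of the 6 libraries. The stacks reach about the same height in every library, and MT1X and MT2A make up most of each.

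The same 3 genes made up the family in both groups. MT2A, MT1X and MT1F together held 99.5 to 100% of the metallothionein counts of a library. MT1X took 46.0 ± 2.36% of them in GFP cells and 42.8 ± 1.78% in CTRB1 cells, MT2A 41.2 ± 3.04% and 44.3 ± 2.6%, and MT1F 12.6 ± 0.95% and 12.7 ± 2.46% (SD, n = 3 each). By library the MT1X share was 47.4, 43.3 and 47.4% in GFP cells, against 42.6, 44.7 and 41.2% in CTRB1 cells, so the groups overlapped. The exact binomial 95% intervals were 41.1 to 45.5% in GFP replicate 2 and 41.6 to 47.9% in CTRB1 replicate 2, and 46.0 to 48.8% in the deepest library, GFP replicate 3, and 37.8 to 44.7% in the shallowest, CTRB1 replicate 3. The other 8 genes were not tested: 4 had no count in any library (MT1A, MT1H, MT1M and MT4), and MT1B, MT1E, MT1G and MT3 had at most 5 in a library. At these counts no difference was detectable.

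The authors' deposited table gives its own comparison, with an adjusted p for 23 of the 36 genes. Of these, 6 have an adjusted p under 0.05 in the authors' deposited table, beside 30.6% of all genes with one, and all 6 are among the 7 called here. The authors' deposited table gives SLC30A7, the seventh, an adjusted p of 0.0882.

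Other genes of metal handling were taken from 3 lists. Of 13 expressed genes of copper and manganese handling 3 were higher and 2 lower, or 38.5% called beside 37.4% of all genes tested, with a median log2 change of 0.01. SLC11A2 (DMT1), a transporter of iron, manganese and other divalent metals, rose from 49.1 ± 0.887 to 59.6 ± 3.16 CPM (SD, n = 3 each; log2 change 0.28; edgeR adjusted p = 0.000558). CCS, the copper chaperone of superoxide dismutase, was also higher (0.16; adjusted p = 0.0239), as was ATP7A, a copper pump (0.17; adjusted p = 0.0165, and 0.0767 without GFP replicate 1 or 0.0748 without GFP replicate 2). The call of CCS was lost without CTRB1 replicate 2 (adjusted p = 0.0765) or any 1 of the GFP libraries (0.0647 to 0.0882), without a filter (0.0513) and after thinning (0.0522). The call of ATP7A was also lost with limma on log2(FPKM + 1) (adjusted p = 0.138). COX17 and SCO2, which deliver copper to cytochrome oxidase, were lower (-0.19 each; edgeR adjusted p = 0.00924 and 0.0145). The call of COX17 was lost without GFP replicate 3 (adjusted p = 0.0514), and that of SCO2 without GFP replicate 3 (0.0687), GFP replicate 1 (0.0524) or CTRB1 replicate 1 (0.0503).

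Of 9 expressed genes of zinc handling outside the families, 1 was lower and none higher, or 11.1% called beside the same 37.4%, with a median log2 change of -0.06. Most of the 9 are copies of the zinc metallochaperone gene ZNG1 (ZNG1A, ZNG1B, ZNG1C, ZNG1E and ZNG1F among them). The share therefore does not rest on 9 separate genes. The gene called lower was ZNG1C, a copy that has several near-identical paralogs, so its count is uncertain (log2 change -0.27; edgeR adjusted p = 0.0318). Leaving out GFP replicate 3 gave -0.16 (adjusted p = 0.131), and the call was also lost without GFP replicate 2 (0.0632), without any 1 of the CTRB1 libraries (0.0518 to 0.0895) and with limma on log2(FPKM + 1) (0.123). METAP1, the client of ZNG1, and TRPM7, a channel that passes zinc and magnesium, had log2 changes of -0.01 and 0.06, neither called (adjusted p = 0.865 and 0.17 in edgeR).

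Of 13 genes that respond to heavy metals through MTF1, NRF2 or heat shock factors, 7 were lower and 1 higher, or 61.5% called beside 37.4% of all genes tested, with a median log2 change of -0.24 beside 0.00. No test of this difference was made, the genes were not counted by factor, and the list was chosen with earlier results of these data known. HSPA1A and HSPA1B are related genes that each count in this share, and whether reads were divided between them was not tested. The heat shock genes HSPA1B, HSPA1A and HSPH1 and the cystine transporter gene SLC7A11 had the smallest adjusted p, with log2 changes of -1.43, -1.44, -0.56 and 1.40. The co-chaperone genes DNAJB1 and BAG3 were lower as well (log2 changes -0.35 and -0.24; edgeR adjusted p = 5.32e-06 and 0.000705). SRXN1, the sulfiredoxin gene, was lower (-0.28; edgeR adjusted p = 0.000217), as was NQO1, a quinone reductase gene, at the threshold (-0.27; adjusted p = 0.049995). The call of NQO1 was lost without any 1 of 5 libraries, all but CTRB1 replicate 3 (adjusted p 0.0731 to 0.141), with the replicate block (0.076), without a filter (0.0789) and with a filter on counts (0.0578). HMOX1, the haem oxygenase gene that cadmium strongly induces, was named after its values were seen: it stood at 53.1 ± 0.415 and 54.4 ± 1.09 CPM (SD, n = 3 each; log2 change 0.03; edgeR adjusted p = 0.467). GCLC and GCLM, the subunits of the rate-limiting enzyme of glutathione synthesis, had log2 changes of -0.02 each (edgeR adjusted p = 0.734 and 0.778). TXNRD1 and SELENOH, the rest of the list, had log2 changes of -0.01 and -0.05 and were not called (edgeR adjusted p = 0.864 and 0.235). Over the 3 lists 4 of 35 expressed genes were higher and 10 lower, or 40% called, a share near the 37.4% of all genes tested. The higher genes numbered 2 without GFP replicate 1 or GFP replicate 2, and the lower ones 6 without GFP replicate 3.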

How the data were processed

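RNA of 6 HEK 293FT libraries was sequenced, 3 per group, and groups follow the titles. Per the file headers, the deposited table gives raw counts for every gene. It also holds the authors' FPKM and TPM values, per the file headers. The TPM values were not used. The authors' own comparison, in the deposited table, has a log2 fold change, a p-value and its adjusted value, and its tool is not stated. Tools in the submitters' processing notes are HTSeq 0.6.1, HISAT2 2.2.1 and cutadapt 1.9.1, beside the mouse build GRCm38.p5, without roles. The gene identifiers are human, and no source used here names the build behind the coordinates.

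The design foresaw the count test, and edgeR 4.0.16 in R 4.3.3 was fitted on the counts of genes with an FPKM of at least 1 in at least 3 libraries (11961), with TMM factors (0.996 to 1.004), 1 model for both groups and no covariate. CPM use TMM library sizes, and the SE is the log2 change divided by the square root of F. The 95% intervals are not adjusted for multiple tests. Alternatives were DESeq2 1.42.0, DESeq2 size factors, 3 other filters, the replicate number as a block, each library left out, limma 3.58.1 on log2(FPKM + 1) and log2(FPKM + 0.1), and counts thinned to 27514767 per library. The genes and lists were chosen with earlier results of these data known. By the naming rule every member may be named, with library values for MTF1, the expressed metallothioneins and the called members, and up to 4 called genes of each list. COL1A1, HBA1, CD3E, HBB, CCS, CREB3L4, RXRB, ERH, METAP1, TRPM7, DNAJB1, BAG3, SRXN1, NQO1, HMOX1, GCLC, GCLM, TXNRD1 and SELENOH were named after their values were seen. The summed level of the blood cell markers is not reported here.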

Additional observations from a re-analysis of the deposited data

How the results depend on the processing

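Over all genes tested the count of higher calls was 2221, and 1250 with limma on log2(FPKM + 1) or log2(FPKM + 0.1), where calls split into 39.2% higher against 49.6% in the main test. Of the 7 called genes, SLC39A1, SLC39A6 and SLC39A10 kept their call under all 15 alternatives, and no called gene changed direction. Over 324 values of the 22 genes, 22 lost a call and 9 gained one. The 2 higher calls became 1 under both limma fits and after thinning to equal depth, and ranged from 1 to 4 when a library was left out. The 5 lower calls became 3 among genes with a mean FPKM of at least 5, where 16 genes were tested, and ranged from 2 to 5 when a library was left out. The listed genes outside the families ranged from 2 to 4 higher and 6 to 9 lower when a library was left out. The summed metallothioneins passed in limma on FPKM (log2 change -0.14 with either pseudocount; adjusted p = 0.0218 and 0.0222). In edgeR and DESeq2 fits that sum did not pass (adjusted p 0.07 to 0.329). The causes were not tested. Shares taken from FPKM were 32.1% and 34.7% for MT2A, 56.8% and 53.9% for MT1X, and 11% for MT1F in GFP cells. MT2A, MT1F, SLC39A8 and SLC30A3 changed sign in 10 values, with a call in none.

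Same-numbered libraries did not deviate together (correlations of -0.083, -0.003 and -0.084), so no pairing by replicate number was seen. With 3 libraries per group, each centred on its group mean, these values cannot exclude pairing, and the labels do not state it. With the replicate block 3 genes were higher and 4 lower, and over all genes 2119 and 2201. Depth limits MT1F most among the expressed genes, with 97 counts in the shallowest library and 674 in the deepest.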
